A study of Mus musculus with 4 samples.

Results

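The protein kinase C genes encode serine and threonine kinases that are switched on by lipid signals at membranes. Primary cultures of cardiac fibroblasts, which lay down the connective tissue of the heart, came from WT mice aged P1-P3, and their RNA was sequenced after overexpression of Nr4a3, an orphan nuclear receptor (OENr4a3), or of a control (OECtrl), in 2 libraries per group. The 8 genes described are Prkca, Prkcb, Prkcd, Prkce, Prkch, Prkci, Prkcq and Prkcz, taken by gene symbol from 55359 genes in the count table. They were chosen by family membership with the counts of these 4 libraries known, above all the difference in Prkcq. The contrast of OENr4a3 with OECtrl is therefore only a description for them, and no p-value is printed for any of the 8. Where the fit over all genes called some of them, or they passed an unadjusted threshold, that too is description and tests nothing about them. All 8 passed the filter on low counts, as did 15029 genes in all. The titles place the samples at day 10 and the design text at reprogramming day 7, and the labels used here name neither the vector, the control insert, the mouse strain nor any reprogramming factors. No label says that the replicates were separate cultures, so the spread between libraries may be technical, and p-values measure only that spread. The labels give fibroblasts as the cell type, and all 10 fibroblast markers listed for the check were above the filter. All 8 macrophage and all 6 endothelial markers passed it too, so the filter alone does not tell these cell types apart. Summed over each list, fibroblast markers held 312199 to 390683 reads per library. Macrophage markers held 1694 to 2005 and endothelial markers 691 to 852.

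Conventional isoforms need calcium and diacylglycerol, the calcium-independent class (delta, epsilon, eta and theta) needs diacylglycerol alone, and the atypical isoforms respond to neither and work in cell polarity complexes. Diacylglycerol is made by phospholipase C downstream of receptors that couple to Gq or to tyrosine kinases, and diacylglycerol kinases remove it. Prkcq encodes protein kinase C theta, best known in T cells and skeletal muscle, and Prkca, Prkcd and Prkce encode the alpha, delta and epsilon isoforms long studied in heart muscle.

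The libraries held between 14275501 and 18441428 counts, so the limit set by a count of 0, taken as 3 reads, lay at 0.165 to 0.208 CPM (counts scaled to a library of 1000000, with library sizes adjusted by TMM). This limit covers counting error only. The OECtrl replicates differed more than the OENr4a3 replicates did, with a chi-square per degree of freedom of 15.5 against 2.55. Nr4a3 had 36 and 31 reads in the OECtrl pair and 3184 and 3196 in the OENr4a3 pair, and its log2 fold change was 6.35 ± 0.158 (SE; edgeR adjusted p = 1.13e-07). Reads from the introduced copy and from the gene of the mouse cannot be told apart in these counts. Longer genes stood higher in OENr4a3 as a whole, with a Spearman correlation of 0.42 between log2 fold change and exonic length across 15029 genes, which are not independent replicates. The 8 kinase genes are long, with a median of 7171 exonic bases against 4126 over all tested genes, so their values are also given with that trend removed.

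Of the promoters, that of Prkcq is shown because this gene differed most of the 8 between the groups, and that of Prkcd because it had the highest mean level per length. Each window runs from 250 bases before to 50 bases after a start of the gene in RefSeq (GRCm38.p6), 5′ to 3′ on the strand of the gene. Prkcq lies at chr2:11172132-11172431 on the plus strand and Prkcd at chr14:30626159-30626458 on the minus strand. Capitals mark a GC box (GGGCGG on either strand) or a TATA box (TATAAA).

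Prkcq: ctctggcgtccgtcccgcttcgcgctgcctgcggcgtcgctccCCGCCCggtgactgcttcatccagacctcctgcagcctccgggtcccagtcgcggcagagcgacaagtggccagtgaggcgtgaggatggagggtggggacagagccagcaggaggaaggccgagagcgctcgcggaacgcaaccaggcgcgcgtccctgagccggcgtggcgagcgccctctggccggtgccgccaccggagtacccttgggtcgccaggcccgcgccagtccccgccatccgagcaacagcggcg

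Prkcd: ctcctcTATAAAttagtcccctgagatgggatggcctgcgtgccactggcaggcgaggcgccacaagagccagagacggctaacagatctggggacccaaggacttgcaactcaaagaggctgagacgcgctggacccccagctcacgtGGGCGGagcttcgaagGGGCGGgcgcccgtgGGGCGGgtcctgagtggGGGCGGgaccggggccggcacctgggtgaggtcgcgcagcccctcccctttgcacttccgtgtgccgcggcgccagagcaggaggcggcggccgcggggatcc

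The window of Prkcq held 73.0% G and C and 37 CpG dinucleotides, and the printed window of Prkcd 69.3% and 26, beside medians of 52.7% and 7 over 32851 windows. A second window of Prkcd, at a start inside the gene, held 51.3% and 2, with neither a GC box nor a TATA box. Windows were given for 6 of the 8 genes, 9 windows in all, and none was given for Prkce and Prkch. The NBRE (AAAGGTCA), the site bound by NR4A receptors as monomers, was searched on both strands and was in none of the 9 windows, while 1.51% of all windows held it. Its inner half-site AGGTCA was likewise in none of the 9 (16.3% of all windows), and so was the phorbol ester response element TGACTCA (5.20%). The half-site is part of the NBRE, so those matches overlap. The GC box was in 7 of the 9 windows (35.7% of all windows), with 1 match in Prkcq and 4 in the printed window of Prkcd. The TATA box was in 1 window, the printed one of Prkcd, 244 bases before the start (13.6% of all windows), and the cyclic AMP response element TGACGTCA was in 1 of 3 windows of Prkcz (1.79%). A missing match says only that these letters are not in these windows. In GENCODE M21 Prkcq starts at base 11172108 and Prkcb at 122288751, before the whole window of each. Sequence upstream of those starts was therefore not searched. The Prkcz windows at chr4:155345740-155346039 and chr4:155344700-155344999 also lie inside the gene.

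**Figure D1:**
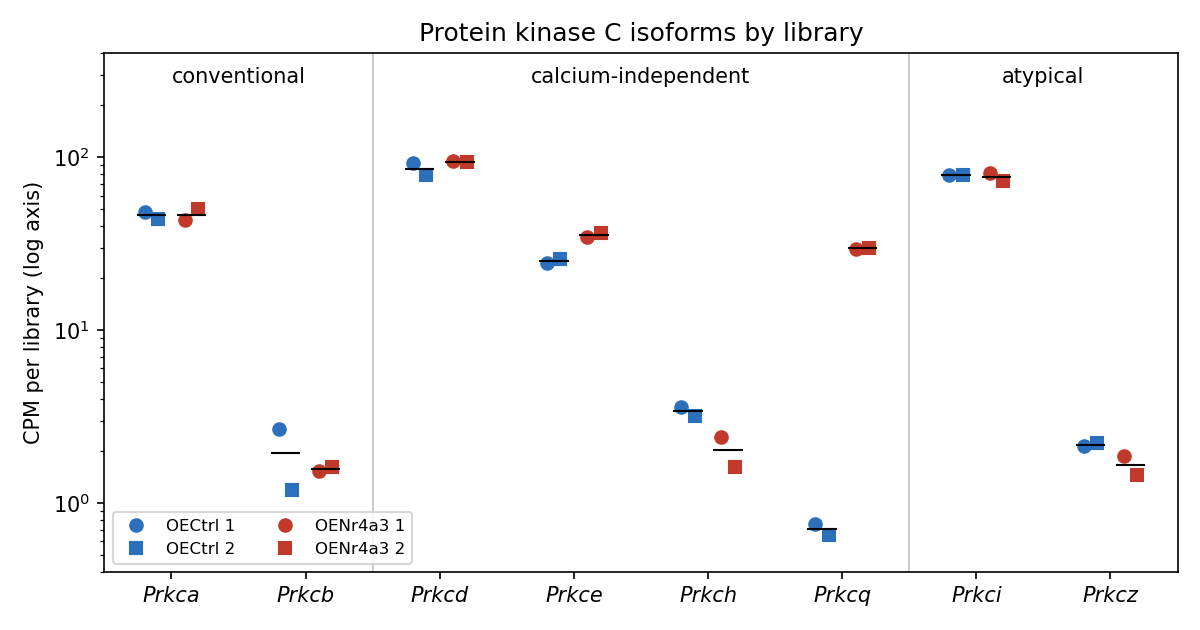
Level in CPM of the 8 protein kinase C genes in each library on a log axis, with OECtrl in blue, OENr4a3 in red, circles for replicate 1, squares for replicate 2 and bars for group means. Prkcq lies below 1 CPM in both OECtrl libraries and near 30 CPM in both OENr4a3 libraries, whereas the other 7 genes differ less than 2-fold.

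In the calcium-independent class, Prkcq had 11 and 11 reads in the OECtrl libraries and 537 and 535 in the OENr4a3 libraries. Both OENr4a3 libraries were far above both OECtrl libraries, and the replicates of each group lay close together. The level went from 0.71 ± 0.0729 to 29.7 ± 0.131 CPM (SD, n = 2 each), a 41.6-fold difference (log2 fold change 5.38 ± 0.203 SE, 95% interval 4.92 to 5.83). In the order of log2 fold changes over the 15029 tested genes, Prkcq was number 11 from the top. With the length trend removed the log2 fold change was 5.22, and over 12 alternative settings it ranged from 5.22 to 5.48. The gene (ENSMUSG00000026778) lies on chromosome 2 from 11172108 to 11301222, plus strand (GRCm38, as for all positions that follow), and the 3 annotated genes that overlap it had 0 reads in all 4 libraries.

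T cells and skeletal muscle, where Prkcq is best known, left few reads in these cultures. The 8 T cell markers together held 5 and 11 reads under OECtrl and 13 and 14 under OENr4a3, Cd3d and Cd3g were at 0 in every library, and Lck had the most reads, at 0.258 ± 0.0265 and 0.25 ± 0.276 CPM. The 9 skeletal muscle markers summed to 30 and 20 reads under OECtrl, then 16 and 18 under OENr4a3. Of these Acta1 had the most, with 19, 9, 5 and 9 reads, and the myogenic factors Myod1, Myog, Myf5 and Myf6 were at 0 in every library. The 5 platelet and megakaryocyte markers, another lineage that uses Prkcq, summed to 2.77 and 4.43 CPM in OECtrl and to 4.57 and 5.17 CPM in OENr4a3. Of them Pf4 had the most reads, with 19, 42, 43 and 43 reads. Within each OENr4a3 library Prkcq had more reads than any of these 3 lists summed, and the part of such cells in the Prkcq counts was not tested.

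Prkce, the epsilon isoform, had 355 and 433 reads under OECtrl, against 626 and 658 under OENr4a3. Both OENr4a3 libraries were above both OECtrl libraries, at 25.2 ± 0.946 and 35.5 ± 1.5 CPM (SD, n = 2 each), a 1.41-fold difference (log2 fold change 0.49 ± 0.118 SE, 95% interval 0.228 to 0.759). The value was 0.32 with the length trend removed, where the fit over all genes no longer called it, nor did it without either OENr4a3 library. Prkce (ENSMUSG00000045038) covers 490135 bases of chromosome 17, from 86167785 to 86657919 on the plus strand.

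Prkcd, the delta isoform, had 1340 and 1316 reads in the OECtrl pair and 1716 and 1692 in the OENr4a3 pair. The levels were 92.7 and 78.7 CPM against 94.5 and 94.1 CPM. Both OENr4a3 libraries lay above both OECtrl libraries, but the OECtrl libraries differed from each other more than the group means did (log2 fold change 0.14 ± 0.113 SE, interval -0.114 to 0.392). Without OECtrl replicate 1 it stood at 0.26 and without OECtrl replicate 2 at 0.02. Prkcd (ENSMUSG00000021948) occupies bases 30595354 to 30626210 of chromosome 14 on the minus strand, and no annotated gene overlaps it. Prkch, the eta isoform of epithelia and endothelium, was scarce, with 52 and 53 reads under OECtrl, against 44 and 29 under OENr4a3. Both OENr4a3 libraries lay below both OECtrl libraries, at 3.38 ± 0.302 and 2.02 ± 0.573 CPM (log2 fold change -0.74 ± 0.301 SE, interval -1.42 to -0.0638). Prkch (ENSMUSG00000021108) lies on chromosome 12 from 73584796 to 73778185, plus strand, also without an overlapping gene.

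Markers of epithelial and mesothelial cells were lower in OENr4a3 beside Prkch. The 6 markers summed to 505.4 and 539.4 CPM in OECtrl and to 239.9 and 223 CPM in OENr4a3. All 4 that could be tested were called lower by edgeR, where 11.0% of all tested genes were. Msln had the most reads (263.3 ± 18.5 to 109.6 ± 11.6 CPM, edgeR adjusted p = 0.000215). Nearly all of the sum came from Msln and Upk3b, the latter at 240.53 ± 0.895 and 117.75 ± 0.675 CPM. Epcam was at 0 in every library, and Cdh1 had 6, 1, 0 and 0 reads. Upk3b and Cdh1 are named after their values were seen. The 6 endothelial markers summed to 47.8 and 43.4 CPM in OECtrl and to 42.4 and 47.4 CPM in OENr4a3, Tek having the most reads of them (14.8 CPM in each group). Their part in the Prkch values was not tested. In such bulk samples fewer cells of a type and less RNA per cell cannot be told apart.

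Of the conventional isoforms, Prkca, the alpha isoform, had 698 and 738 reads in the OECtrl pair and 784 and 898 in the OENr4a3 pair. The CPM values of the groups overlapped, at 46.2 ± 2.94 and 46.6 ± 4.79 CPM (log2 fold change 0.01 ± 0.12 SE, interval -0.258 to 0.281). With the length trend removed Prkca, the longest of the 8 at 8992 exonic bases, stood at -0.22. Prkcb, the beta isoform of blood cells and brain, had 39 and 20 reads under OECtrl, against 28 and 29 under OENr4a3. Its OECtrl libraries lay on either side of the OENr4a3 libraries (log2 fold change -0.28 ± 0.42 SE, interval -1.23 to 0.662), and the value was 0.40 without OECtrl replicate 1 and -0.77 without OECtrl replicate 2.

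Each conventional gene overlaps another annotated gene, and whether reads were counted by strand is not known. Prkca (ENSMUSG00000050965, chromosome 11, 107933387 to 108343928, minus strand) overlaps Apoh on the other strand, which had 15 and 32 reads in the OECtrl pair and 3 and 7 in the OENr4a3 pair. Prkcb (ENSMUSG00000052889, chromosome 7, 122288751 to 122634402, plus strand) overlaps Gm14388 on its own strand, which had 41, 59, 58 and 62 reads in the 4 libraries, more than Prkcb in each. Of the other genes that overlap Prkcb, the 6 matched to the count table had at most 8 reads in a library. The B cell markers, 4 genes, held 3 to 8 reads per library, most of them from Cd79a over the 4 libraries. The 8 macrophage markers summed to 138.7 and 116.6 CPM in OECtrl and to 96.2 and 94.3 CPM in OENr4a3. EdgeR called 3 of the 8 as lower, where 11.0% of all tested genes were. Cd68, with the most reads, was not called (adjusted p = 0.0726). Their part in the Prkcb counts was not tested.

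The atypical isoforms differed from each other more in level than between the groups. Prkci, the iota isoform, had 1136 and 1326 reads under OECtrl, against 1461 and 1317 under OENr4a3. Its levels overlapped between the groups, at 79.0 ± 0.506 and 76.9 ± 5.09 CPM (log2 fold change -0.04 ± 0.105 SE, interval -0.274 to 0.196). Prkci (ENSMUSG00000037643) lies on chromosome 3 from 30995747 to 31052959, plus strand. Prkcz, the zeta isoform, had 31 and 37 reads in the OECtrl pair and 34 and 26 in the OENr4a3 pair. In CPM both OENr4a3 libraries were below both OECtrl libraries, at 2.18 ± 0.0483 and 1.66 ± 0.301 CPM (log2 fold change -0.39 ± 0.322 SE, interval -1.11 to 0.331). Prkcz (ENSMUSG00000029053) lies on chromosome 4 from 155260129 to 155361361, minus strand. The count of Prkcz is uncertain, because the annotated copy Prkcz2 shares 1164 of its 1726 stretches of 31 bases with Prkcz transcripts. Prkcz2 had 26 and 14 reads under OECtrl, against 26 and 21 under OENr4a3. Among the 28 pairs of the 8 genes only Prkca and Prkcb shared any such stretch, with 8 in common.

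Taking the 8 genes together, edgeR called 2 as higher in OENr4a3, Prkcq and Prkce, where 12.0% of all tested genes were called higher. It called 0 as lower, where 11.0% of all tested genes were, with 1 at an unadjusted p under 0.05. DESeq2 and limma-voom called 0 as lower too, with 0 and 1 at an unadjusted p under 0.05. In either direction 2 of 8 were called, beside 23.0% of all genes. The groups did not overlap in CPM for 5 of 8, beside 68.2% of all tested genes. Because the members were picked with this contrast known, nothing is read from these counts. By sign 4 were higher and 4 lower, and the median log2 fold change was -0.01, as was that of all tested genes.

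**Figure D2:**
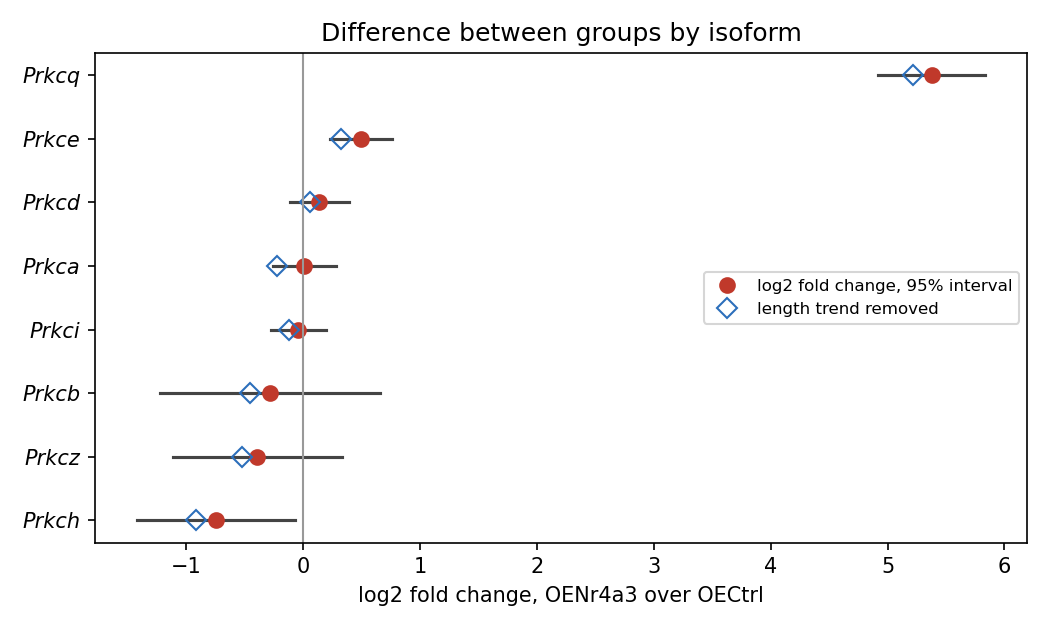
Log2 fold change of OENr4a3 over OECtrl for each isoform (red points) with its 95% interval (lines), and the value with the length trend removed (open blue diamonds). Prkcq stands at 5.38 and the other 7 lie between -0.74 and 0.49.

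Levels of different genes were compared as CPM per kilobase of deposited exonic length (RPKM, on library sizes scaled by TMM). In OECtrl the order was Prkcd (15.5), Prkci (14.2), Prkca (5.14), Prkce (3.48), Prkch (0.449), Prkcz (0.345), Prkcb (0.255) and Prkcq (0.1), each the mean of 2 libraries. The libraries of Prkcd and Prkci overlapped in this order, as did those of Prkcz and Prkcb, and the other neighbours were apart. In OENr4a3 the order was Prkcd (17.0), Prkci (13.8), Prkca (5.18), Prkce (4.90), Prkcq (4.19), Prkch (0.268), Prkcz (0.263) and Prkcb (0.206). Here the libraries of Prkca and Prkce overlapped, and so did those of Prkch and Prkcz. Prkcq moved from last to the fifth of 8, next to Prkca and Prkce.

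Prkcq held 0.263% and 0.245% of the summed level per length of the 8 genes in the OECtrl libraries, and 9.06% and 9.21% in the OENr4a3 libraries. The calcium-independent class as a whole made up 50.6% and 48.1% in OECtrl and 57.1% and 57.9% in OENr4a3. The atypical class made up 35.4% and 38.5% in OECtrl and 32.1% and 29.4% in OENr4a3, and the conventional class 14.0% and 13.3%, then 10.9% and 12.6%. The sum over all 8 was 40.9 and 38.0 in OECtrl and 46.1 and 45.6 in OENr4a3. Without Prkcq the sums were 40.8 and 37.9, then 41.9 and 41.4. Scaled by the longest annotated transcript in place of the exonic length, Prkcq was the third of 8 in OENr4a3, before Prkce and Prkca, and Prkcb and Prkcz changed places in both groups, so these orders depend on the length used.

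**Figure D3:**
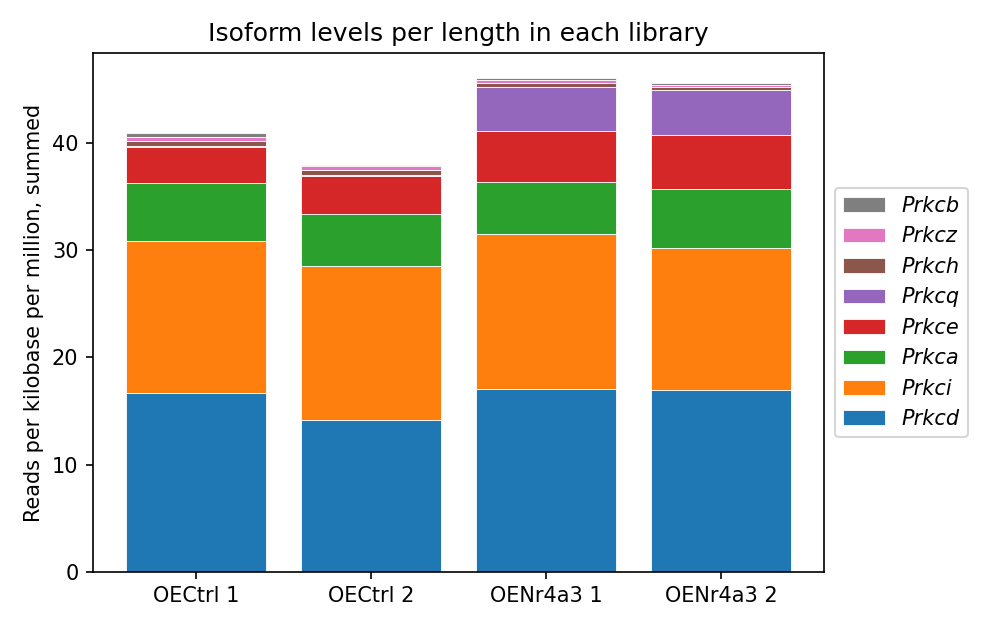
Level per length (RPKM) of the 8 isoforms in each library, stacked by gene. Prkcd and Prkci form the larger part of every bar, and the Prkcq segment (0.1 in OECtrl, 4.19 in OENr4a3) is visible in the OENr4a3 bars.

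Patterns over the 4 libraries were compared with that of Prkcq by Euclidean distance of centred log2 CPM (prior count 2). Among 15028 other tested genes the nearest were Tmem229a, Kcna5, Tyrp1, Nr4a3 and Nrsn1. Kcna5, a voltage-gated potassium channel, had 12 and 20 reads in the OECtrl pair and 751 and 810 in the OENr4a3 pair (distance 0.479). Nr4a3 itself was at a distance of 1.12. The other 3 were scarce in OENr4a3 and nearly without reads in OECtrl. Tmem229a had 0 and 0 reads against 59 and 63 (distance 0.327), Tyrp1, a melanosome enzyme, 0 and 0 against 35 and 45 (0.929), and Nrsn1 0 and 1 against 38 and 33 (1.45). The prior count shrinks the differences of genes with counts of 0. In the edgeR fit the log2 fold change was 8.83 for Tmem229a, 8.22 for Tyrp1 and 5.64 for Nrsn1. That of Kcna5 was 5.39 and that of Prkcq 5.38. With 4 libraries in 2 groups the distance is mostly one of the group difference, the same contrast that chose Prkcq.

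The rest of the pathway was read from 81 genes listed by their role, 68 of which passed the filter. Of these 68, 9 rose and 5 fell in edgeR's test at an adjusted p of 0.05. That is 20.6% beside 23.0% of all tested genes, of which 12.0% were called higher and 11.0% lower. The same shares stand beside the counts of each list below. The median log2 fold change of the 68 was 0.15 beside -0.01 over all tested genes. Removing the length trend left 6 higher and 6 lower calls, and 9 of the 14 called genes kept theirs. Without OENr4a3 replicate 1 or 2 there were 6 and 9 calls, and without OECtrl replicate 1 or 2 there were 32 and 26.

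**Figure D4:**
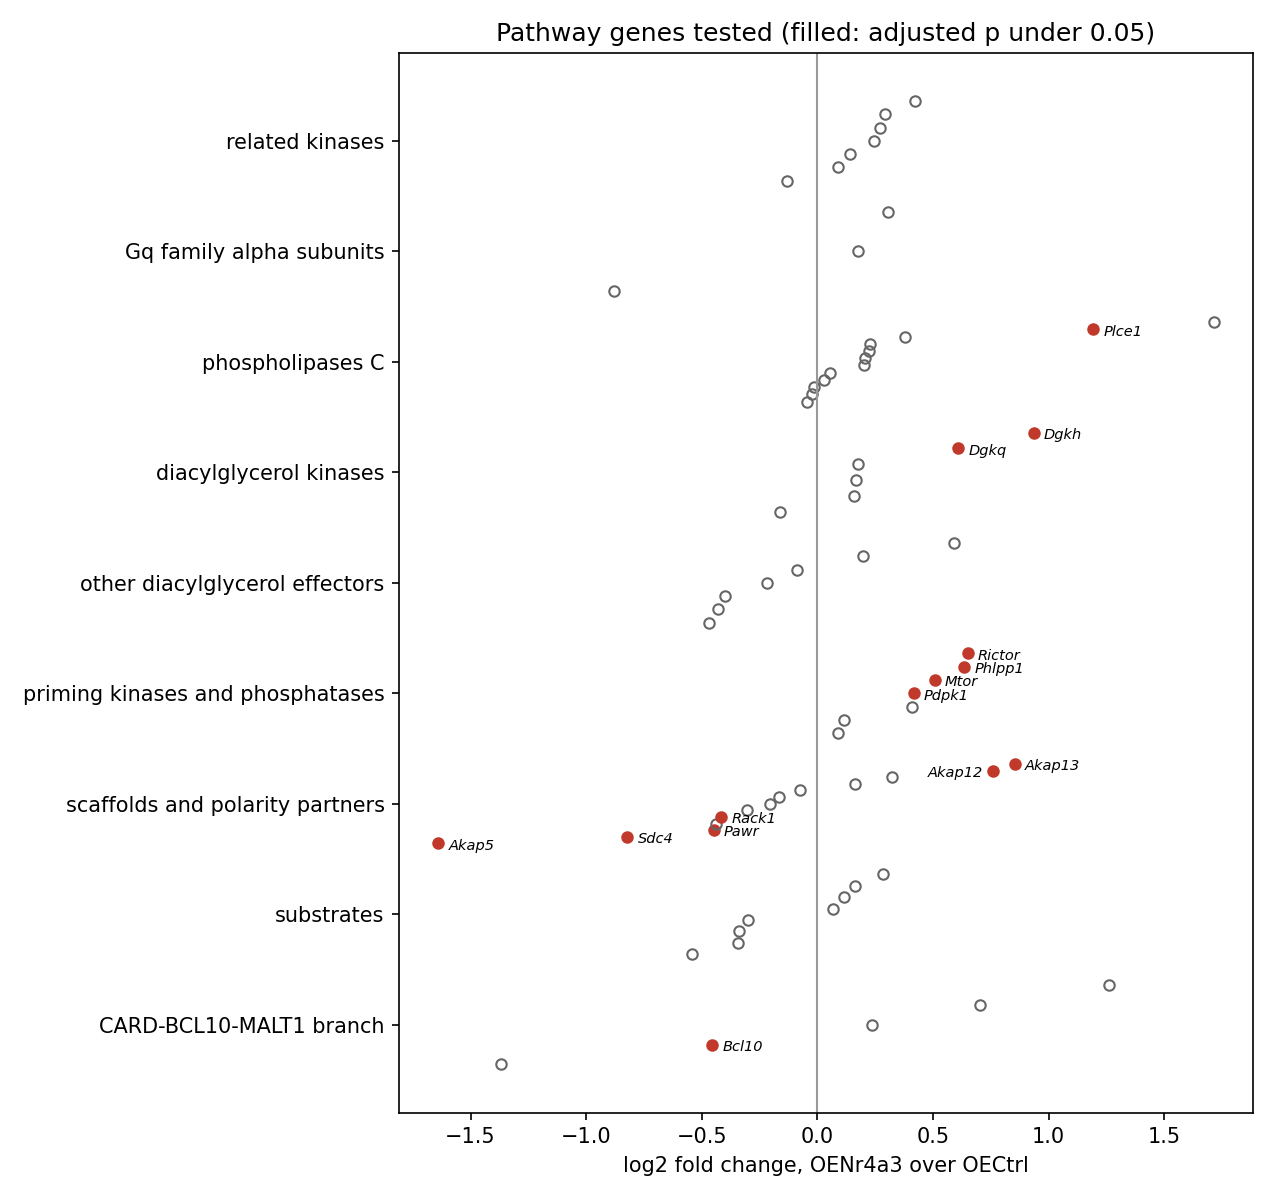
Log2 fold change of OENr4a3 over OECtrl for the 68 pathway genes that passed the filter, by list; filled red points with names passed an adjusted p of 0.05 and open points did not. Calls in the priming list all lie to the right of 0, and those in the scaffold list lie on both sides.

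Of the phospholipase C family, whose active members make diacylglycerol, 12 of 14 genes were tested, 1 rose and 0 fell. The 14 include Plcl1 and Plcl2, relatives without catalytic activity. At an unadjusted p under 0.05 edgeR had 3 higher and 0 lower, and DESeq2 and limma-voom also called 0 lower. Plce1, the epsilon phospholipase regulated by Ras proteins, had 202 and 169 reads under OECtrl, against 519 and 471 under OENr4a3. Both OENr4a3 libraries were above both OECtrl libraries (log2 fold change 1.19 ± 0.167 SE, edgeR adjusted p = 0.00226), and it was 0.77 with the length trend removed. Its call was kept in all 12 alternatives. Plcg1, the gamma form used by receptor tyrosine kinases, and Plcb3 had the most reads of the list. Both are named after their values were seen. Plcg1 had 1256 and 1220 reads under OECtrl and 1612 and 1767 under OENr4a3. Plcb3 had 1258 and 1240 reads, then 1652 and 1692. Plcg1 measured 80.0 ± 9.85 CPM in OECtrl and 93.6 ± 6.73 CPM in OENr4a3 without passing the test (edgeR adjusted p = 0.19). Plcb3 did not pass it either (edgeR adjusted p = 0.219). None of the 3 tested Gq family subunits was called by edgeR, with 1 (Gna11) at an unadjusted p under 0.05; DESeq2 called 0, while limma-voom, and edgeR with the length trend removed, called 1. Gna11, named after its value was seen, stood at 109.7 ± 3.88 and 135.4 ± 2.06 CPM (edgeR adjusted p = 0.0517).

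Of the diacylglycerol kinases, 6 of 10 were tested, 2 rose and 0 fell, and by edgeR, DESeq2 and limma-voom 0 were lower even at an unadjusted p under 0.05. With the length trend removed edgeR called 1 as higher and 0 as lower, with 1 lower at an unadjusted p under 0.05. Dgkh, the eta kinase, had 341 and 295 reads in the OECtrl pair and 711 and 710 in the OENr4a3 pair (log2 fold change 0.94 ± 0.149 SE, edgeR adjusted p = 0.00422). It is the longest tested gene of that list at 16975 exonic bases, and it stood at 0.49 with the length trend removed, still called (adjusted p = 0.0102). Dgkq, the theta kinase, rose from 11.5 ± 2.63 to 17.4 ± 1.22 CPM (0.61, adjusted p = 0.0364). Its call was lost in 5 of 12 alternatives, among them with the length trend removed (0.45, edgeR adjusted p = 0.0623). It was also lost without OECtrl replicate 2 (log2 fold change 0.38), OENr4a3 replicate 1 (0.69) or OENr4a3 replicate 2 (0.54).

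The kinases and phosphatases that set protein kinase C phosphorylation held 4 rises and 0 falls among 7 tested genes, with 0 lower at an unadjusted p under 0.05 by edgeR, DESeq2 or limma-voom. Rictor, a subunit of the mTOR complex that phosphorylates these kinases near the C terminus, rose from 48.7 ± 8.82 to 76.3 ± 5.06 CPM (log2 fold change 0.65, edgeR adjusted p = 0.0122). Phlpp1, a phosphatase that removes phosphate there, rose from 15.5 ± 1.68 to 24.0 ± 1.47 CPM (0.64, adjusted p = 0.0142). Pdpk1, the kinase of the activation loop, reached 115.1 ± 5.04 CPM from 86.3 ± 6.92 (0.42, adjusted p = 0.0248). Mtor, named after its value was seen, rose too (0.51, edgeR adjusted p = 0.0487). These tested genes had a median of 8449 exonic bases. With the length trend removed only Phlpp1 of the 4 was called (0.49, adjusted p = 0.0191), and Rictor stood at 0.21, Pdpk1 at 0.11 and Mtor at 0.24. Without OENr4a3 replicate 1 none of the 4 was called (adjusted p of 0.0818 for Rictor, 0.12 for Phlpp1, 0.196 for Pdpk1 and 0.102 for Mtor), and without OENr4a3 replicate 2 Pdpk1 (0.334) and Mtor (0.214) were not. Mtor stood at 0.79 without OECtrl replicate 1 and at 0.26 without OECtrl replicate 2.

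Scaffolds and polarity partners moved both ways, with 2 rises and 4 falls among 13 tested genes. Akap5, an anchoring protein that binds protein kinase C and A, had 256 and 279 reads under OECtrl, against 105 and 94 under OENr4a3. Both OENr4a3 libraries were below both OECtrl libraries (log2 fold change -1.64 ± 0.157 SE, edgeR adjusted p = 0.000298), and over 12 alternatives it ranged from -1.79 to -1.56. Sdc4, the proteoglycan syndecan 4 that binds Prkca protein at adhesions, fell from 197.6 ± 11.3 to 111.8 ± 1.36 CPM (-0.82, adjusted p = 0.00102). Akap12, a scaffold that is also a substrate, rose from 479 ± 86.1 to 810.8 ± 9.76 CPM (0.76, adjusted p = 0.0043). These 3 kept their calls in all 12 alternatives.

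The other 3 called scaffold genes are named after their values were seen. Akap13 rose (0.85, edgeR adjusted p = 0.00671; 0.35 with the length trend removed). Pawr, an inhibitor of atypical isoforms, fell (-0.45, adjusted p = 0.0177), and it was -0.19 and not called (adjusted p = 0.181) with the length trend removed. Rack1, a receptor for activated protein kinase C that also sits on ribosomes, fell from 707.5 ± 75.4 to 530.2 ± 3.78 CPM (-0.42, adjusted p = 0.02). Pawr lost its call when OENr4a3 replicate 1 (adjusted p = 0.332) or 2 (0.199) was left out, and so did Rack1 (0.271 and 0.255).

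In the branch that runs from protein kinase C theta to NF-kappaB in lymphocytes, 5 genes were tested, of which 1 fell and 0 rose, with 2 higher at an unadjusted p under 0.05 by edgeR, 0 by DESeq2 and 1 by limma-voom. Bcl10, an adaptor shared by this branch, fell from 67.8 ± 4.15 to 49.5 ± 0.00301 CPM (log2 fold change -0.45, edgeR adjusted p = 0.0177), and its call was lost without OENr4a3 replicate 1 (0.253) or 2 (0.257). Malt1, its protease, likewise named after its value was seen, had levels of 10.6 ± 3.26 and 12.4 ± 0.187 CPM without passing the test.

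For the substrates, edgeR called none of the 8 tested genes, with 4 at an unadjusted p under 0.05 (1 higher, 3 lower), and DESeq2 and limma-voom also called 0, while edgeR with the length trend removed called 1 as lower. Marcks, a membrane-bound substrate also chosen by its value, stood at 449.7 ± 62.9 and 471.8 ± 7.94 CPM (log2 fold change 0.07, adjusted p = 0.679). The 7 related kinases also had 0 calls by edgeR, DESeq2 and limma-voom, with 2 at an unadjusted p under 0.05 in edgeR. The 7 tested genes of other diacylglycerol effectors had 0 calls by edgeR, DESeq2 and limma-voom, with 1 at an unadjusted p under 0.05 in edgeR and 1 called as lower by edgeR with the length trend removed.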

How the data were processed

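RNA of 4 libraries (2 OECtrl, 2 OENr4a3, grouped by sample titles) was extracted with TRIzol, depleted of ribosomal RNA and made into stranded paired-end libraries, per the labels' protocols, although the molecule label reads polyA RNA. The authors deposited whole-number counts per Ensembl gene, per the file headers. The submitters' processing notes name Trimmomatic 0.36, Subread 1.5.1, featureCounts, SAMtools and mm10; the aligner, gene annotation and strand option were not given in the sources used here. Overlapping genes may therefore share reads. The authors' deposited exonic length was used for levels per length, and 4 per-sample FPKM columns were not used. The deposited coordinates of the 8 genes had the same span as in GENCODE M21 (GRCm38) but another start for all 8, so coordinates are from GENCODE M21, matched by Ensembl identifier, and the annotation behind the counts may differ from it.

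Tests on the counts used edgeR 4.0.16 (filterByExpr, TMM with factors 0.9842 to 1.017, glmQLFit and glmQLFTest, two-sided, Benjamini-Hochberg over 15029 genes, no replicate block), with limma 3.58.1 and DESeq2 1.42.0 as alternatives, in R 4.3.3. A gene was called at an adjusted p under 0.05. Standard errors were derived from the F statistic and the fold change. The length trend was removed from each library by lowess (span 0.3) of log2 CPM (prior count 2) as offsets. No replicate pair agreed within sampling noise.

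The members, lists and alternatives were chosen with earlier results of these data known. Named genes are the 8 members, Nr4a3, up to 3 called genes with the smallest p per pathway list, the 5 genes nearest to Prkcq, and the most abundant marker per cell type list. Markers at 0, overlapping genes, Prkcz2, Myh6, Plcl1, Plcl2 and those so marked in the text were named after their values were seen. Promoters are from RefSeq (GRCm38.p6), with 6 of 8 genes matched by symbol. Protein sequences were not analysed here. Some genes of the pathway lists are not reported here.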

Additional observations from a re-analysis of the deposited data

How the results depend on the processing

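The log2 fold change of Prkcq, which chose the set, lay between 5.22 and 5.48 over the 12 alternatives, given as a description. Of the other 7 isoforms, Prkca, Prkcb and Prkci changed sign in some of them, none as a called gene. With the length trend removed 1 isoform was called higher in place of 2, since Prkce dropped out. Leaving out each library in turn gave 1 to 3 isoforms called higher and 0 lower. The third was Prkcd, without OECtrl replicate 1. Leave-one-out counts of pathway genes ran from 4 to 23 higher and from 2 to 10 lower, and counts of all genes from 1203 to 7133, from 755 to 3672 higher and from 448 to 3461 lower. Such fits take the spread of the lone library from the other group, and the OECtrl pair differed more. Without a filter on low counts 1878 genes were called, 1121 higher (59.7%) and 757 lower, against 1802 higher (52.1%) and 1655 lower; the cause was not tested. Upper-quartile factors gave 1547 higher (43.9%) and 1975 lower. The share of Prkcq in the summed level per length became 0.305% in OECtrl and 10.8% in OENr4a3 with the longest transcript as length. A replicate block gave 3851 calls, 10 pathway genes higher and 6 lower, and the same 2 isoforms; same-numbered libraries deviated with a correlation of -0.0776 across 15029 genes, so the numbers were not taken as pairs. Of the 14 called pathway genes 6 kept their call in all 12 alternatives and none reversed. The scarce isoforms (Prkcb, Prkch, Prkcz) have wide intervals.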

Other observations

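Markers of 2 further cell types were checked beside the kinase genes. The 6 Schwann and neural markers summed to 80.6 and 93.2 CPM in OECtrl and to 53.5 and 57.0 CPM in OENr4a3, nearly all of it Tubb3 (79.7 ± 8.46 to 48.1 ± 1.71 CPM, edgeR adjusted p = 0.00401), while Sox10 was at 0 in every library. The 6 cardiomyocyte markers summed to 4.84 and 4.61 CPM in OECtrl and to 11.8 and 5.67 CPM in OENr4a3. Nppa had the most reads of the list over all libraries (3.16 ± 0.855 and 3.17 ± 2.52 CPM). Of the 2 cardiomyocyte markers tested, Myh6, a heart muscle myosin, rose (log2 fold change 2.68 ± 0.676 SE, edgeR adjusted p = 0.0232). It had 19 and 1 reads in OECtrl, then 99 and 53 in OENr4a3, each pair far apart in itself. In OENr4a3 Nppa had fewer reads than Myh6, with 90 and 25. Of the 10 fibroblast markers, 3 rose and 3 fell by edgeR, beside 12.0% and 11.0% of all tested genes. Col3a1, with the most reads, measured 6875 ± 240.2 and 6821 ± 93.7 CPM.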
